A study of Homo sapiens with 12 samples.

Results

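The integrated stress response was followed gene by gene in NCI-H295R cells, a human adrenocortical carcinoma line that makes cortisol. The 10 genes, taken by symbol from the 60662 genes of the TPM table, were the transcription factor genes ATF4, ATF3, ATF5 and DDIT3, the pseudokinase gene TRIB3, and the effector genes CHAC1, SESN2, DDIT4, GDF15 and NIBAN1. Confluent cultures of this single line were serum-starved for 12 h before treatment with vehicle (VEH, 0.1% DMSO), 30 µM CJ28, a benzimidazolylurea, or 30 µM metyrapone (MET), an inhibitor of 11β-hydroxylase, over 24 h, and 4 samples per group were sequenced from rRNA-depleted, stranded libraries. The design calls them biological replicates without saying whether they came from separate cultures, so p-values measure the spread between these samples. All 10 genes were found, each under 1 entry.

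In the integrated stress response, kinases that sense unfolded protein in the endoplasmic reticulum, missing amino acids, haem shortage, mitochondrial stress or double-stranded RNA phosphorylate the translation factor eIF2. General translation then falls, while mRNAs with short upstream reading frames, among them those of ATF4, ATF5 and DDIT3, are translated better. ATF4 protein, paired with C/EBP or other bZIP proteins, switches on genes of amino acid supply and of stress control, and prolonged activity brings in DDIT3 protein (CHOP). An mRNA level, as measured here, is therefore not a measure of ATF4 protein.

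ATF4 dimers are known to bind C/EBP-ATF response elements, so promoter sequence was set beside the values. RefSeq windows on GRCh38.p14, from 250 bases before to 50 after each start, were found for all 10 genes, 17 windows in all. The letters TGATGNAA, or TTNCATCA on the other strand, occurred in windows of 2 of the 10 genes, ATF3 and CHAC1, and in those of 4.46% of all genes with a window. With only the 250 bases before the start, the same 2 genes held it, against 3.89% of all genes. Both stretches are shown in transcript direction with the matching letters in capitals, because they belong to genes that were higher in every CJ28 sample.
ATF3 (chr1:212565196-212565243, plus strand, match at -191 to -184 from the start): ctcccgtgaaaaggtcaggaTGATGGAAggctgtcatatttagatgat
CHAC1 (chr15:40953242-40953289, plus strand, match at -209 to -202): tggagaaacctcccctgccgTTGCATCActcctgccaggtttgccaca

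The CCAAT box, bound by NF-Y and also part of the endoplasmic reticulum stress element, was found as CCAAT or ATTGG in windows of 6 of the 10 genes (ATF3, DDIT3, CHAC1, SESN2, DDIT4 and GDF15) and of 39.7% of all genes. The cyclic AMP element TGACGTCA was in no window of the 10 genes and in those of 2.25% of all genes. These matches are letters in a window, not binding sites, and the absence of a match says nothing beyond the window. The 3 stretches that follow show CCAAT boxes, in capitals, of genes with a pair of them, CHAC1 having 3.
DDIT3 (chr12:57520574-57520626, minus strand, boxes from -100 to -72): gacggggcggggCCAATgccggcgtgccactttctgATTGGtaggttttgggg
SESN2 (chr1:28259355-28259448, plus strand, boxes from -151 to -82): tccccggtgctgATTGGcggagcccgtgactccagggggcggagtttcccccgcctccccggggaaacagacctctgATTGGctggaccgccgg
DDIT4 (chr10:72273804-72273865, plus strand, boxes from -108 to -71): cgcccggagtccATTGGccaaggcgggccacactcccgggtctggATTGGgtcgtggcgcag

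Every sample listed between 29463 and 31016 genes above 0 TPM. TPM is a length-corrected share of one library, so it can be set against other genes, but it keeps no read depth, and neither counting error nor a detection limit could be given. Nuclear protein-coding genes held 21.3% to 21.4% of TPM in CJ28, 24.3% to 24.8% in VEH and 24.1% to 24.6% in MET, and across all tested genes CJ28 differed from VEH by a median log2 fold change of -0.13. After division by median-of-ratios factors (one scaling factor per sample, from the median ratio of its genes to their geometric mean over samples) this median was 0.014, and after rescaling to nuclear protein-coding genes it was 0.064. Of 11 adrenocortical marker genes 10 passed the filter, among them NR5A1, a master regulator of steroidogenic cells, at 47.9 ± 1.89 TPM in VEH (SD, n = 4), while CYP11B1 was near 0. The markers summed to 427 to 449 TPM in VEH, 263 to 323 in CJ28 and 415 to 429 in MET. Between CJ28 and VEH 1 of the 10 was called higher and 8 lower, where 19.9% of all tested genes were called higher and 37.1% lower. The part of these markers in the results that follow was not tested. For markers of other cell types the highest sum in any sample was 7.40 TPM for 7 chromaffin genes, mostly CHGB, with TH at 0 in every sample, 1.91 for 7 fibroblast genes, 1.02 for 5 immune genes and 0.14 for 5 endothelial genes. Of these, 2 chromaffin genes passed the filter and both were called lower in CJ28, calls lost after rescaling to nuclear protein-coding genes. In a bulk sample, fewer stressed cells and less RNA in each cell cannot be told apart.

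CJ28 and VEH differed in all 10 genes, and 9 of them were higher in CJ28. The rises ranged from 1.20-fold for ATF4 to 69.3-fold for GDF15 in mean TPM, and ATF5 was the gene that fell. Summed over the 10 genes, CJ28 samples held 380 ± 9.13 TPM, against 125 ± 2.86 for VEH and 126 ± 2.51 for MET (SD, n = 4). The groups were compared on log2(TPM + 0.1) with limma in one fit of all 12 samples over the 16815 genes with at least 0.5 TPM in at least 4 samples, and a gene was called at a Benjamini-Hochberg adjusted p under 0.05 over all of them. By this test 9 members were called higher and 1 lower for CJ28 against VEH (limma, largest adjusted p = 4.31e-05), where 19.9% of all tested genes were called higher and 37.1% lower. Median-of-ratios scaling changed the counts over all genes from 3346 higher and 6231 lower to 4925 and 4430, and left the members at 9 and 1. GDF15 and NIBAN1 passed the filter only through the CJ28 samples, so they had to differ and their calls are not counted as support. The other 8 were at 0.5 TPM or more in every sample, and 7 of them were called higher and 1 lower.

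**Figure D1:**
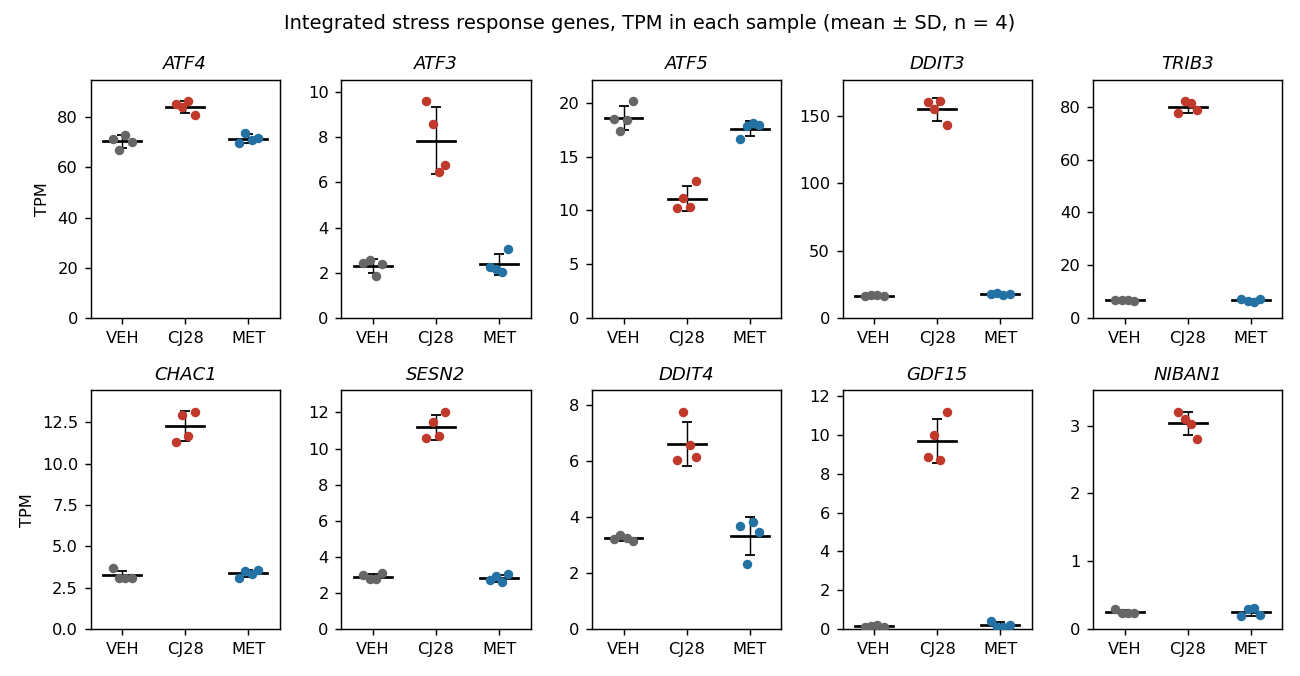
TPM of each of the 10 genes (vertical axes, linear from 0, one scale per gene) in the 4 VEH, 4 CJ28 and 4 MET samples. Points are samples, long bars the mean and short bars the SD. In 9 panels every CJ28 point lies above every VEH and MET point, in the ATF5 panel every CJ28 point lies below them. Of all tested genes, 17.7% had every CJ28 sample above every VEH sample and 32.7% had every one below. Against MET these shares were 18.9% and 31.3%. GDF15 and NIBAN1, among the 9, passed the filter only through CJ28, so they had to differ.

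ATF4 (ENSG00000128272.14, chromosome 22, 39519695 to 39522685 on GRCh38), the central activator, had the highest mean of the 10 genes in VEH. Its TPM was 71.4, 66.9, 73.0 and 70.1 in VEH and 85.2, 84.2, 86.2 and 80.7 in CJ28. In MET it was 69.7, 73.7, 70.8 and 71.5. The CJ28 samples lay above both other groups, which overlapped. ATF4 rose by a log2 fold change of 0.26 (SE 0.034, limma, adjusted p = 3.61e-05) from VEH to CJ28, the smallest rise of the 9. After median-of-ratios scaling the change was 0.41, and after rescaling to nuclear protein-coding genes 0.46. Its 4 processed pseudogenes, which could share reads with it, stayed at 0.3 TPM or less.

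DDIT3 (ENSG00000175197.12, chromosome 12, 57516588 to 57521737) encodes CHOP, a bZIP factor of prolonged stress. It held 16.4, 17.1, 16.9 and 16.7 TPM in VEH, and 160.1, 155.2, 160.5 and 142.8 in CJ28. In MET it held 17.6, 18.9, 17.5 and 18.1. The CJ28 samples were far above the others and made DDIT3 the most abundant of the 10 genes under CJ28, ahead of ATF4. The log2 fold change between CJ28 and VEH was 3.20 (SE 0.042, limma, adjusted p = 6.49e-14), rank 16 among the 16815 genes. The ratio of DDIT3 to ATF4 TPM went from 0.239 ± 0.012 in VEH to 1.84 ± 0.049 in CJ28, and was 0.253 ± 0.0038 in MET (SD, n = 4).

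Part of DDIT3 is shared with other entries of the table. AC022506.1, annotated as protein-coding on the same strand at 57517712 to 57520480, lies wholly inside it, and RSEM, the tool behind the TPM values, may divide reads between the entries. This entry was uneven within groups, with 23.1, 0, 0 and 0 TPM in VEH, 0, 138, 14.0 and 13.8 in CJ28, and 5.47, 0, 0 and 0 in MET. Summed with it, DDIT3 held 16.7 to 39.6 TPM in VEH, 157 to 294 in CJ28 and 17.5 to 23.1 in MET. The sums of CJ28 and VEH still did not overlap, whereas those of MET and VEH did. MARS1, a methionyl-tRNA synthetase gene on the opposite strand that overlaps the end of DDIT3, rose from 67.6 ± 2.72 to 145.9 ± 2.38 TPM in CJ28 (SD, n = 4). The libraries were stranded, but whether quantification used the strand is not given in the sources used here, and the part of MARS1 in the DDIT3 values was not tested.

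ATF3 (ENSG00000162772.17, chromosome 1, 212565334 to 212620777), an early stress factor that mostly represses its targets, held 2.43, 2.56, 1.87 and 2.40 TPM in VEH and 9.58, 8.57, 6.46 and 6.79 in CJ28. In MET it held 2.28, 2.17, 2.04 and 3.05. The groups CJ28 and VEH were apart, although the CJ28 samples spread more (coefficient of variation 18.8%) than the CJ28 samples of any other member. ATF3 rose by 1.71 on the log2 scale from VEH to CJ28 (95% interval 1.38 to 2.04).

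ATF5 (ENSG00000169136.11, chromosome 19, 49928702 to 49933935), a relative of ATF4 tied to mitochondrial stress, went the other way. Its TPM was 18.4, 17.4, 18.4 and 20.1 in VEH, 10.2, 11.1, 10.3 and 12.7 in CJ28, and 16.6, 17.8, 18.1 and 17.9 in MET. The log2 fold change between CJ28 and VEH was -0.74 (SE 0.069, limma, adjusted p = 1.45e-06), and after median-of-ratios scaling it was -0.59 and after rescaling to nuclear protein-coding genes -0.54. All CJ28 samples were lower than all VEH samples, as for 32.7% of all tested genes. NUP62, a nuclear pore gene whose start overlaps that of ATF5 on the opposite strand, moved with it. NUP62 had 22.9 ± 0.806 TPM in VEH and 23.1 ± 1.26 in MET, and fell to 13.0 ± 0.74 in CJ28 (SD, n = 4). The ratio of ATF5 to NUP62 TPM was 0.750 to 0.899 in VEH, 0.792 to 0.904 in CJ28 and 0.669 to 0.813 in MET, ranges that overlap. The part of NUP62 in the ATF5 result was not tested.

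TRIB3 (ENSG00000101255.11, chromosome 20, 362835 to 397559) encodes a pseudokinase, induced by ATF4 and CHOP, that restrains ATF4. It held 7.04, 6.80, 6.86 and 6.52 TPM in VEH and 77.6, 82.0, 81.3 and 78.6 in CJ28, against 7.10, 6.66, 6.18 and 7.36 in MET. Its log2 fold change of 3.53 (SE 0.052, limma, adjusted p = 1.39e-13) took rank 11 of all tested genes. Under CJ28 the samples of TRIB3 and ATF4 overlapped in TPM, while in VEH and MET those of TRIB3 lay well below.

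CHAC1 and SESN2 changed by almost the same amount. CHAC1 (ENSG00000128965.13, chromosome 15, 40952962 to 40956512), an enzyme that degrades glutathione, held 3.68, 3.09, 3.11 and 3.07 TPM in VEH, 11.3, 13.0, 11.7 and 13.1 in CJ28, and 3.11, 3.50, 3.30 and 3.54 in MET. SESN2 (ENSG00000130766.5, chromosome 1, 28259518 to 28282491), a leucine sensor that restrains the growth kinase complex mTORC1, held 2.99, 2.75, 2.74 and 3.09 in VEH, 10.6, 11.5, 10.7 and 12.0 in CJ28, and 2.73, 2.91, 2.59 and 3.03 in MET. In both genes the CJ28 samples stood clear of the rest. Log2 fold changes from VEH were 1.89 for CHAC1 (95% interval 1.73 to 2.05) and 1.91 for SESN2 (1.77 to 2.06).

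DDIT4 (ENSG00000168209.5, chromosome 10, 72273924 to 72276036), which encodes the mTORC1 inhibitor REDD1, showed the smallest rise among the effectors. It held 3.21, 3.36, 3.23 and 3.14 TPM in VEH, 6.03, 7.74, 6.57 and 6.12 in CJ28, and 3.69, 2.30, 3.82 and 3.45 in MET, where 1 sample was low. The log2 fold change between CJ28 and VEH was 1.00 (SE 0.14, limma, adjusted p = 4.31e-05). DDIT4-AS1, on the opposite strand inside DDIT4, had a mean of 0.305 TPM in VEH and 0.0725 in CJ28. The ratio of SESN2 to DDIT4 TPM, 0.896 ± 0.076 in VEH, was 1.71 ± 0.21 in CJ28 (SD, n = 4).

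GDF15 and NIBAN1 were almost silent without CJ28. GDF15 (ENSG00000130513.6, chromosome 19, 18374731 to 18389176), a secreted cytokine, held 0.10, 0.17, 0.20 and 0.09 TPM in VEH, 8.88, 10.01, 8.71 and 11.2 in CJ28, and 0.41, 0.10, 0.10 and 0.22 in MET. NIBAN1 (ENSG00000135842.17, chromosome 1, 184790724 to 184974508), a stress-induced gene linked to control of translation, held 0.29, 0.24, 0.23 and 0.23 TPM in VEH, 3.20, 3.10, 3.02 and 2.81 in CJ28, and 0.19, 0.30, 0.31 and 0.21 in MET. Both were at or under 0.41 TPM in all 8 VEH and MET samples. On the log2(TPM + 0.1) scale the changes from VEH to CJ28 were 5.37 for GDF15 (SE 0.28) and 3.17 for NIBAN1 (SE 0.15). These sizes depend on the pseudocount, and with 1 in place of 0.1 they were 3.23 and 1.69.

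The order of the genes by mean TPM therefore differed between the groups. In VEH it ran ATF4, ATF5, DDIT3, TRIB3, CHAC1, DDIT4, SESN2, ATF3, NIBAN1 and GDF15, and among neighbours the samples of CHAC1 and DDIT4 overlapped. In CJ28 it ran DDIT3, ATF4, TRIB3, CHAC1, SESN2, ATF5, GDF15, ATF3, DDIT4 and NIBAN1. There the samples of ATF4 and TRIB3 overlapped, as did each neighbouring pair from CHAC1 down to DDIT4. GDF15 went from the lowest place in VEH to a level that overlapped those of ATF5 and ATF3. In MET, as in VEH, ATF4 came first and CHAC1, DDIT4, SESN2 and ATF3 lay below TRIB3, but the samples of DDIT3 and ATF5 overlapped. Over the 12 samples the pair with the highest Pearson correlation of log2 levels was DDIT3 and TRIB3 (r = 0.998) and that with the lowest was DDIT3 and ATF5 (r = -0.969), values that mostly follow the shared difference between CJ28 and the other groups.

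GDF15 and NIBAN1, which the filter bound to differ, are left out of the next counts. At a log2 fold change above 1.5 with an unadjusted p under 0.01, 5 of the other 8 genes were higher in CJ28, against 0.702% of all tested genes, or 0.494% of the 16198 that did not need the CJ28 samples to pass the filter. Every CJ28 sample lay above every VEH sample in 7 of the 8, against 17.7% of all tested genes. In two-sided exact permutation tests of mean TPM each of these 8 genes gave p = 0.0286 for CJ28 against VEH, the smallest that 4 against 4 samples allow. Such tests were run for 30 pairs of gene and comparison, with GDF15 and NIBAN1 among the genes. Their p-values are given unadjusted because the genes were chosen with earlier results known. With each sample left out in turn, none of the 8 lost its call against VEH, and the log2 fold change of DDIT3 stayed within 3.18 to 3.23.

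**Figure D2:**
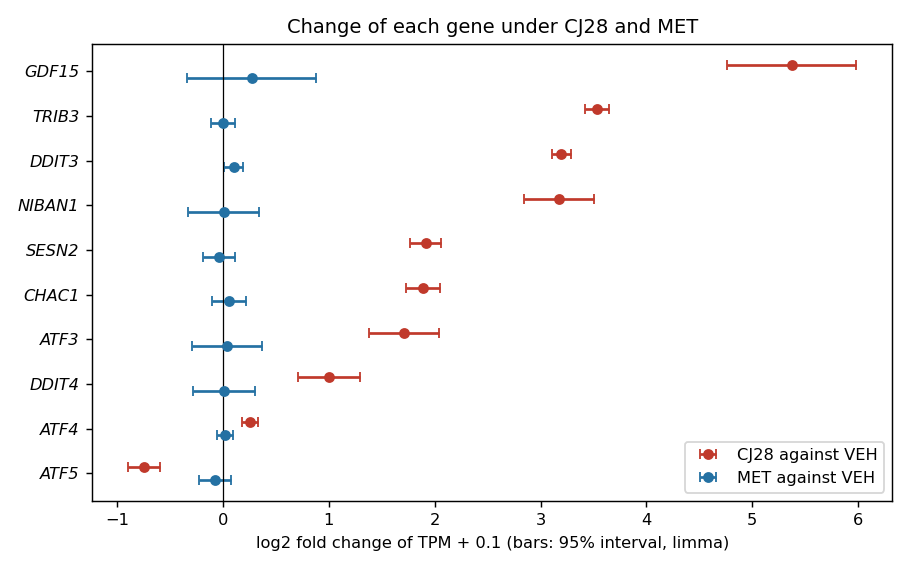
Log2 fold change of TPM + 0.1 (horizontal axis) of each gene (vertical axis, ordered by the CJ28 value) against VEH, for CJ28 in red and MET in blue, with 95% intervals from limma. Red points run from -0.74 for ATF5 to 5.37 for GDF15, and blue points stay between -0.08 and 0.27.

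MET, given at the same dose and for the same time, was compared with VEH in the same fit. None of the 10 genes was called (limma, smallest adjusted p = 0.933, for DDIT3), and over all genes 1 was called, the histone gene H4C12, or 0.00595% (874 genes had an unadjusted p under 0.05). Log2 fold changes ranged from -0.08 for ATF5 to 0.27 for GDF15, and 1 of the 10 had an unadjusted p under 0.05. That gene was DDIT3, with a log2 fold change of 0.10 (95% interval 0.012 to 0.19). Every MET sample lay above every VEH sample for DDIT3, as for 0.779% of all tested genes (exact permutation test, two-sided, p = 0.0286). With AC022506.1 added, an alternative chosen after the values were seen, the log2 ratio of mean TPM was -0.22 in place of 0.10 (exact permutation test, p = 1.00). That sign rested on VEH replicate 1, without which the log2 ratio of the sums was 0.20 (exact permutation test, p = 0.0571, where 4 against 3 samples can give no smaller value). The 95% intervals for MET against VEH were narrow for ATF4 (-0.053 to 0.096) and TRIB3 (-0.11 to 0.11). They were wide for GDF15 (-0.34 to 0.88), NIBAN1 (-0.33 to 0.34), ATF3 (-0.30 to 0.36) and DDIT4 (-0.29 to 0.30), so small changes of the latter genes could not be detected.

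Set directly against each other at 30 µM and 24 h, CJ28 and MET differed in all 10 genes. In CJ28 9 were called higher and 1 lower (limma, largest adjusted p = 7.84e-05). GDF15 and NIBAN1, among the 9, passed the filter only through the CJ28 samples, so they had to differ and their calls are not counted as support. Over all genes 20.9% were called higher and 34.6% lower. The log2 fold change between CJ28 and MET was 3.53 for TRIB3, 3.09 for DDIT3, 0.24 for ATF4 and -0.67 for ATF5. This comparison uses the CJ28 samples of the previous one and is not independent of it.

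The other genes of the pathway were taken from lists. Their counts for CJ28 against VEH stand beside 19.9% of all tested genes called higher and 37.1% lower. After median-of-ratios scaling 4925 of the 16815 tested genes were called higher and 4430 lower, a shift that scaled list counts share. After rescaling to nuclear protein-coding genes it was 5562 and 3935. Of 17 genes for eIF2, its kinases, its phosphatase subunits, its exchange factor eIF2B and related regulators, 7 rose, 3 fell and 7 were not called between CJ28 and VEH, with a median log2 fold change of 0.063 against -0.13 for all genes. PPP1R15A (GADD34), the inducible phosphatase subunit that ends the response, rose from 8.91 ± 0.448 to 45.1 ± 2.51 TPM (SD, n = 4), a log2 fold change of 2.33. For PPP1R15B, its constitutive counterpart, the log2 fold change was 0.16. Among the kinases, EIF2AK3 (PERK), which senses endoplasmic reticulum stress, rose by 0.55 on the log2 scale and EIF2AK2 (PKR), which senses double-stranded RNA, had -0.30, a change that was called. EIF2AK1 (HRI), the haem and mitochondrial stress kinase, and EIF2AK4 (GCN2), the amino acid sensor, were not called, with 0.063 and -0.053. EIF2S2, the beta subunit of eIF2, and EIF2B3, an eIF2B subunit, rose by 0.54 and 0.35. After median-of-ratios scaling 11 of the 17 were called higher and 0 lower, EIF2AK1 and EIF2AK4 among the former at 0.22 and 0.098, and the call of EIF2AK2 was lost.

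Of 22 bZIP genes whose proteins can pair with ATF4 or CHOP, or bind related sites, 20 were tested, 12 rose and none fell. CEBPB, an inducible C/EBP factor, had 3.90 ± 0.311 TPM in VEH and 16.4 ± 1.15 in CJ28 (SD, n = 4), a log2 fold change of 2.05, and CEBPG, a C/EBP protein that pairs with ATF4, went from 13.2 ± 0.253 to 41.1 ± 0.334, or 1.63. The small MAF genes MAFF and MAFG rose by 1.3 and 1.12 and JDP2, a repressor close to ATF3, by 0.83. JDP2 was at 0.46 TPM or less in every VEH and MET sample and passed the filter only through CJ28, so it had to differ, and without it 11 of 19 rose. Without adjustment 12 of the 20, JDP2 among them, were higher and 0 lower at p under 0.05 in limma. Over all 16815 tested genes 10306 reached that limit, in either direction. After median-of-ratios scaling 14 of the 20 were called higher and 0 lower.

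Of 40 further ATF4 target genes 37 were tested, and 32 rose, 2 fell and 3 were not called, with a median log2 fold change of 1.13. The rises include JDP2 and ALDH1L2, a mitochondrial folate enzyme gene with at most 0.42 TPM in VEH and at least 1.12 in CJ28. Both passed the filter only through CJ28, and without them 30 of 35 rose and 2 fell. The list shares PPP1R15A, CEBPB, CEBPG and JDP2 with the lists above. NUPR1, a small stress-induced chromatin protein gene, rose from 1.42 ± 0.139 to 8.43 ± 1.25 TPM (SD, n = 4) with a log2 fold change of 2.48. PCK2, the mitochondrial PEP carboxykinase, and ASNS, the asparagine synthetase, changed by 2.01 and 1.98. The genes that fell were VLDLR, a lipoprotein receptor, by 1.3, and PSPH, the last enzyme of serine synthesis, by 0.47, and both were called lower under the scalings too. The 3 genes under the filter, FGF21, ADM2 and STC2, had CJ28 means of 0.305, 0.408 and 0.328 TPM.

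The other arms of the unfolded protein response, led by ATF6 and XBP1, also showed more rises than falls. Of their 19 listed genes 15 rose, 2 fell and 2 were not called, with a median log2 fold change of 0.53. XBP1 rose from 17.8 ± 0.975 to 75.3 ± 1.8 TPM (SD, n = 4), a log2 fold change of 2.08, and the chaperone genes HYOU1, HSPA5 (BiP) and DNAJB9 by 1.11, 1.12 and 1.04. HSPA5 varied widely within groups, at 35.1 ± 7.88 TPM in VEH and 76.1 ± 15.8 in CJ28. The genes that fell were ERN1, the IRE1 sensor, by 0.15, a call lost under both scalings, and SEC61B, a translocon subunit, by 0.29.

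**Figure D3:**
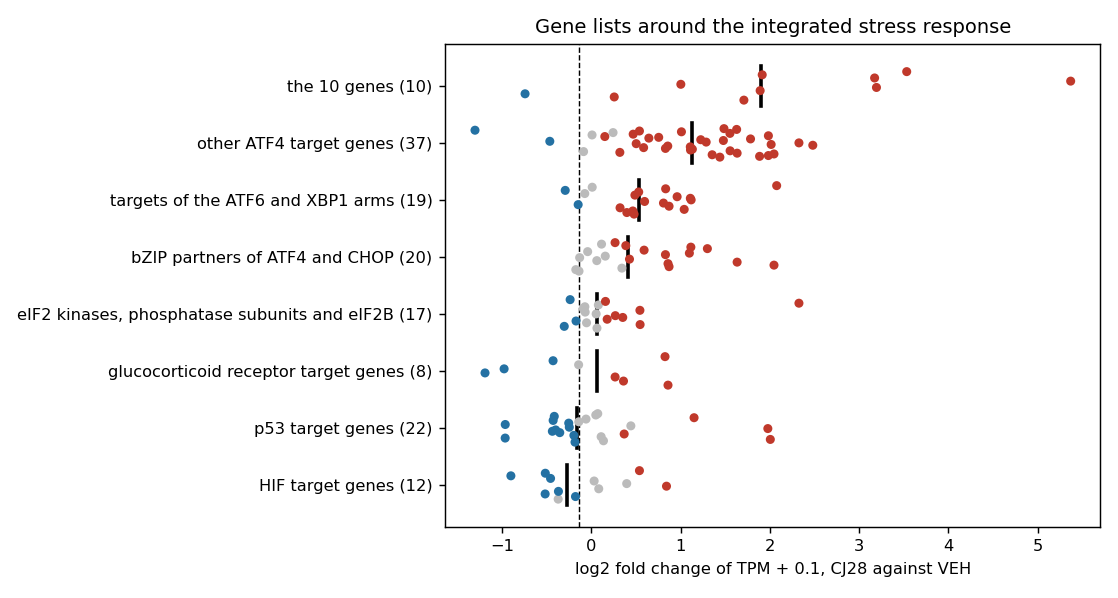
Log2 fold change of TPM + 0.1 between CJ28 and VEH (horizontal axis) for the tested genes of 8 lists (rows, number tested in brackets). Red points were called higher, blue points lower and grey points not called (limma, adjusted p under 0.05), thick bars are list medians and the dashed line is the median of all genes at -0.13. List medians were 1.90 for the 10 genes (1.80 without GDF15 and NIBAN1), 1.13 for other ATF4 targets and 0.53 for the ATF6 and XBP1 arms.

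GDF15, SESN2, ATF3 and DDIT4 are known to answer to other regulators as well, so targets of these were counted. Of 24 p53 target genes 22 were tested, and 4 rose and 11 fell, with a median log2 fold change of -0.16. The share that rose, 18.2%, was near the 19.9% of all tested genes and the median near their -0.13. CDKN1A (p21), the cell cycle inhibitor, had 24.7 ± 0.256 TPM in VEH and 21.5 ± 0.233 in CJ28 (SD, n = 4), and MDM2, the p53 ligase, 41.1 ± 2.32 and 34.6 ± 1.36. Both were called lower, at -0.20 and -0.25, and neither call held under the scalings, where CDKN1A was at -0.043 and 0.009. After median-of-ratios scaling the list had 9 higher and 7 lower of 22, and all 16815 tested genes had 4925 higher and 4430 lower. The largest rises in it were BBC3 (PUMA), a cell death gene, by 2.01, GADD45A, a growth arrest gene, by 1.98, and TNFRSF10B (DR5), a death receptor gene, by 1.15, while BTG2, an antiproliferative gene, fell by 0.97.

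Of 15 targets of hypoxia-inducible factors 12 were tested, with 2 higher and 6 lower in CJ28 and a median of -0.27. Over all tested genes 19.9% were called higher and 37.1% lower, with a median of -0.13, and the next list has the same background. After rescaling to nuclear protein-coding genes the hypoxia list had 5 higher and 4 lower, and all 16815 tested genes had 5562 and 3935. VEGFA, an angiogenic factor that is also an ATF4 target, rose by 0.54 and MXI1, a MYC antagonist, by 0.84, while the glycolytic regulator PFKFB4 fell by 0.90 and the mitophagy receptor BNIP3L by 0.52. Of 10 targets of the glucocorticoid receptor 8 were tested, 4 higher and 3 lower, with TSC22D3 (GILZ) up by 0.83, CEBPD up by 0.86, FKBP5, a chaperone of the receptor, down from 2.95 ± 0.515 to 1.44 ± 0.187 TPM (SD, n = 4), and SGK1, a kinase, from 14.3 ± 0.519 to 10.6 ± 0.795. For MET against VEH no gene of any list was called (limma, smallest adjusted p = 0.889). Of the 157 genes tested in the lists 3 were higher and 9 lower at an unadjusted p under 0.05 in limma. Over all 16815 tested genes 874 reached that limit, in either direction.

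The stress genes were next set beside their closest relatives. Of 9 paralogs 8 were tested, and 2, TRIB1 and JDP2, rose and 6 fell between CJ28 and VEH. Among all tested genes 19.9% were called higher and 37.1% lower. Without JDP2, which the filter bound to differ, 1 of 7 rose. The pseudokinase gene TRIB1 rose from 0.768 ± 0.0881 to 2.15 ± 0.456 TPM (SD, n = 4), a log2 fold change of 1.36, and TRIB2 fell from 2.99 ± 0.258 to 1.68 ± 0.193, or -0.80. CHAC2, the second enzyme of the CHAC1 family, fell by 0.79. The sestrins SESN1, also in the p53 list, and SESN3 fell by 0.43 and 1.17, SESN3 from 5.04 ± 0.328 to 2.18 ± 0.203 TPM, so that SESN2, the lowest of the family in VEH, was the highest in CJ28. After rescaling to nuclear protein-coding genes SESN1 was at -0.23 and no longer called (limma, adjusted p = 0.067). DDIT4L (REDD2) stood at 34.9 ± 1.39 TPM in VEH and 29.1 ± 1.4 in CJ28, above DDIT4 in every group. Its log2 fold change of -0.26 was called, but was -0.11 and -0.058 and not called under the scalings. NIBAN2 fell by 0.58, and NIBAN3 stayed under the filter. Counts for the list were 2 higher and 5 lower after median-of-ratios scaling, and 2 and 4 after rescaling to nuclear protein-coding genes.

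**Figure D4:**
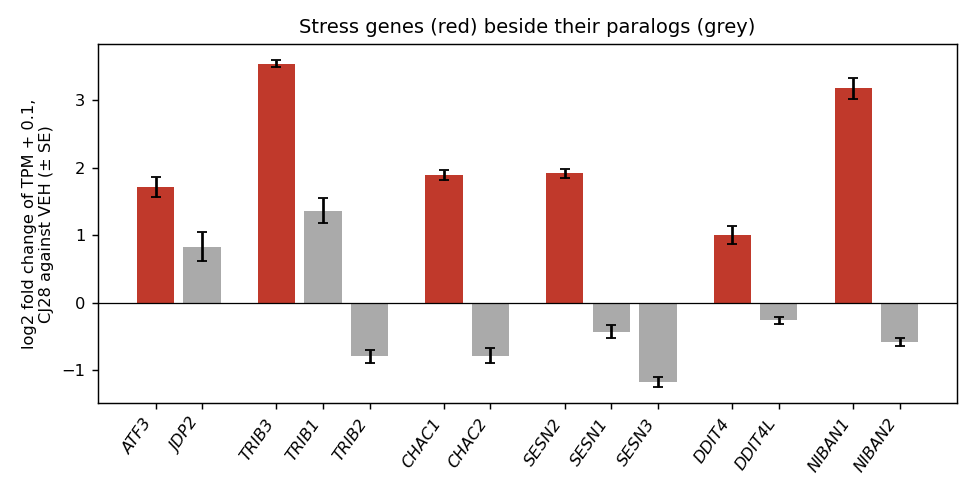
Log2 fold change of TPM + 0.1 between CJ28 and VEH (vertical axis, bars from 0, ± SE from limma) for 6 of the stress genes (red) and their tested paralogs (grey). All 6 red bars are above 0, and of the 8 grey bars those of TRIB1 and JDP2 are above 0. NIBAN1 among the red bars and JDP2 among the grey passed the filter only through CJ28, so they had to differ.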

How the data were processed

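RNA-seq was performed on 12 samples of NCI-H295R cells, 4 each of VEH, CJ28 and MET, grouped by the sample titles. Per the study's methods and the submitters' processing notes, the authors trimmed reads with Cutadapt (version 2.8), mapped them to GRCh38 with STAR (version 2.7.10b) and deposited gene-level TPM from RSEM (version 1.3.3), which corrects for length and library total. The annotation release is not given in the sources used here. Reads and counts were not analysed here, so the count model of the study was replaced by limma (version 3.58.1, R version 4.3.3) on log2(TPM + 0.1), lmFit and eBayes with a trend, without covariates, over genes with at least 0.5 TPM in at least 4 of the 12 samples. Fold changes on this scale understate those of low genes. The fit was tested on simulated data. Exact permutation tests, two-sided, used scipy (version 1.17.1) in Python (version 3.11.15), and figures matplotlib (version 3.10.9).

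Members, lists and tests were chosen with earlier results of these data known. Text names all members, paralogs with a mean of at least 1 TPM, up to 4 called genes per list with the largest change, fixed regulators, the 5 genes most like the members, and, chosen after their values were seen, genes overlapping members, list genes that fell, failed the filter or passed it only through CJ28, JDP2, NIBAN3, H4C12, NR5A1, CYP11B1, CHGB and TH. Lists are those named in the report, with markers of adrenocortical, chromaffin, fibroblast, endothelial and immune cells. Promoter sequences are RefSeq windows. Alternatives were the pseudocount, the filter, both scalings, the trend, the samples in the fit, the replicate number as a block, and each sample left out. Samples sharing a replicate number did not deviate together (mean correlation 0.024 for CJ28 and VEH, -0.024 for MET and VEH).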

Additional observations from a re-analysis of the deposited data

Results flagged for a closer look

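Each gene was checked in each group of 4 samples for a highest or lowest sample standing far from the others. Of 30 such groups 2 were marked, where chance marks about 1 in 20. In VEH the replicate 1 sample had the highest CHAC1, 3.68 TPM against 3.07 to 3.11 in the other 3 samples, a gap of 0.934 of the whole range. The same sample had the highest NIBAN1 in VEH, 0.29 TPM against 0.23 to 0.24, a gap of 0.833 of the range. Without it, the log2 fold change between CJ28 and VEH was 1.95 for CHAC1 (1.89 with it) and 3.23 for NIBAN1 (3.17 with it).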

How the results depend on the processing

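Over the pseudocounts, filters, scalings, fits and left-out samples tried, the members' counts stayed at 9 higher and 1 lower for CJ28 against VEH and against MET, and at 0 called for MET against VEH. Among the 9 are GDF15 and NIBAN1, which passed the main filter only through CJ28 and had to differ. Replicate numbers did not pair the samples, and with the replicate block 10 members were called for CJ28 against VEH and 9546 genes in all (9577 without it). Counts over all genes moved more. Rescaling to nuclear protein-coding genes gave 5562 higher and 3935 lower for CJ28 against VEH, and 5715 and 3738 for CJ28 against MET. This rescaling multiplies the genes of each sample by one factor, set by the share of TPM in nuclear protein-coding genes. That share was 21.3% to 21.4% in CJ28, 24.3% to 24.8% in VEH and 24.1% to 24.6% in MET. Why it was lower in CJ28 was not tested. For MET against VEH the 1 called gene became 0 with a pseudocount of 1 or 0.01 and with a mean of at least 1 TPM, 5 over all genes above 0 TPM, and 1 to 2 with a sample left out (2 without VEH replicate 4 or MET replicate 4); the cause was not tested. For MET against VEH DDIT3 reversed, at a log2 ratio of -0.22, when summed with AC022506.1. That sign rested on VEH replicate 1, since without that sample the log2 ratio of the sums was 0.20. The small, uncalled MET changes of ATF4, ATF3, TRIB3, DDIT4, GDF15 and NIBAN1 also took both signs over the settings. Log2 fold changes ran from -0.0025 to 0.053 for ATF4 and from -0.010 to 0.44 for GDF15. Read depth behind single TPM values was not analysed here, which limits GDF15 and NIBAN1 in VEH and MET most.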

Other observations

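The genes most like the 10 stress genes were sought over the 12 samples, by Pearson's r between log2(TPM + 0.1) and the mean z-score of the 10, among 13296 other genes with a mean of at least 1 TPM. The measure mostly follows the difference between CJ28 and the other groups, and 710 genes had an r over 0.95. The 5 highest were RHOB (r = 0.999), a small GTPase gene, SLC3A2 (0.998), the heavy chain of amino acid transporters, PPP1R15A (0.998), SHMT2 (0.998), a mitochondrial serine enzyme, and the long noncoding RNA LINC00662 (0.997). Under CJ28 RHOB held 46.8 ± 1.59 TPM, against 23.0 ± 0.43 for VEH and 23.0 ± 0.737 for MET (SD, n = 4), and LINC00662 21.7 ± 0.17, against 9.25 ± 0.368 and 9.23 ± 0.186. SLC3A2 and SHMT2 held 54.8 ± 2.08 and 59.1 ± 2.95 TPM in VEH and 217 ± 2.86 and 204 ± 7.13 in CJ28.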
